A study of Mus musculus with 12 samples.

Results

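The TNF ligand and receptor superfamily was examined in RNA-seq of mouse liver. Its members were taken by gene symbol, as every gene of the deposited table whose name starts with Tnfsf or Tnfrsf and a number, together with Tnf, Lta, Ltb, Ltbr, Fas, Fasl, Cd40, Cd40lg, Cd27, Cd70 and Ngfr. This rule gave 41 of the 17710 genes of the table, 16 ligands and 25 receptors, and used no measured value. The livers came from male mice of the inbred strain C57BL/6J and of the outbred stock ICR, 8 weeks old at purchase and with no transgene or drug named in the labels. For 10 weeks they received a normal chow diet (ND) or CDAHFD, a choline-deficient, amino acid-defined diet rich in fat that is used to bring about steatohepatitis. The 4 groups of 3 libraries were thus ND-fed C57BL/6J, CDAHFD-fed C57BL/6J, ND-fed ICR and CDAHFD-fed ICR mice, and the design asks what the diet changes within each strain and whether the strains differ.

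TNF superfamily ligands are mostly membrane-bound trimers that gather their receptors on a neighbouring cell, and some are also released by proteases. Receptors with a death domain can recruit caspases through the adaptor Fadd, and most of the others bind TRAF proteins and feed into NF-kB. In the liver the family is known for hepatocyte death through Fas and the TRAIL receptor, for inflammatory signalling by TNF from macrophages, for TWEAK signalling to its receptor on progenitor and stellate cells, and for the costimulation of lymphocytes.

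Levels are given as CPM, the counts of a gene scaled to a common library total, on library sizes scaled by the trimmed mean of M values (TMM). Library totals ran from 24612309 to 32214782 counts in CDAHFD-fed C57BL/6J, 22245245 to 22752858 in ND-fed C57BL/6J, 29665092 to 30826629 in CDAHFD-fed ICR and 23363460 to 24205176 in ND-fed ICR mice. TMM factors ran from 0.76 to 0.849 in the ND libraries and from 1.17 to 1.43 in the CDAHFD libraries. With library size as the only scaling, the all-gene median of the log2 fold changes moved up by 0.653 in C57BL/6J and by 0.609 in ICR, and changes are reported here relative to the TMM scale. The liver identity of the samples was plain, as 10 hepatocyte markers (Alb, Apoa1, Ttr and others) summed to 124962 to 142867 CPM in ND-fed C57BL/6J and to 52345 to 88909.8 CPM in CDAHFD-fed C57BL/6J mice. A few libraries stood apart. Replicate 1 of both CDAHFD groups had the lowest sums of 5 resident Kupffer cell markers, 89.4 CPM against 569.5 and 638 CPM in C57BL/6J and 165 CPM against 622 and 487 CPM in ICR. Among ND-fed mice, replicate 2 was the highest of its group for the sum of 22 TNF-induced genes in C57BL/6J (1828 CPM against 281 and 395 CPM) and in ICR (3009 CPM against 296 and 1261 CPM). Lcn2 was the largest part of these sums, with a mean of 486 CPM (SD 789) in ND-fed C57BL/6J and 1050 CPM (SD 1130) in ND-fed ICR mice. The sums therefore do not describe the 22 genes alike, and Sod2 was at 119 (SD 13.3) and 146 CPM (SD 2.71).

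Promoter windows of 250 bases before to 50 after the start were matched by symbol to RefSeq (GRCm38.p6) for 31 of the 41 members. The NF-kB consensus was searched on both strands in 34 member promoters, where 11.8% held it, against 8.46% of 32851 promoters of all genes. The letters TATAAA, also searched on both strands, were in 17.6% of member promoters and in 13.6% of all promoters. Such a match describes the letters of the window and is not a measured site. Windows of 4 members whose levels are described below are shown with the matched letters in capitals: the NF-kB consensus of the lymphotoxin subunit Ltb and of the costimulatory receptor Tnfrsf9, and TATAAA of Tnf and Tnfsf18.
Ltb chr17:35194400-35194449 (GRCm38.p6, strand plus): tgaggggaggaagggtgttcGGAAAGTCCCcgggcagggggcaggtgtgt
Tnfrsf9 chr4:150927937-150927986 (GRCm38.p6, strand plus): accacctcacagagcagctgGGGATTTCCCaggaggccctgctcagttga
Tnf chr17:35202011-35202056 (GRCm38.p6, strand minus): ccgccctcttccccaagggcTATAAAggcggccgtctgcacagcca
Tnfsf18 chr1:161494603-161494648 (GRCm38.p6, strand plus): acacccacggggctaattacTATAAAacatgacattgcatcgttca
The match began 87 bases upstream of the start in Ltb, 42 in Tnfrsf9, 29 in Tnf and 34 in Tnfsf18. The Tnfrsf9 window also held the consensus 1 base further upstream, overlapping the match in capitals.

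**Figure D1:**
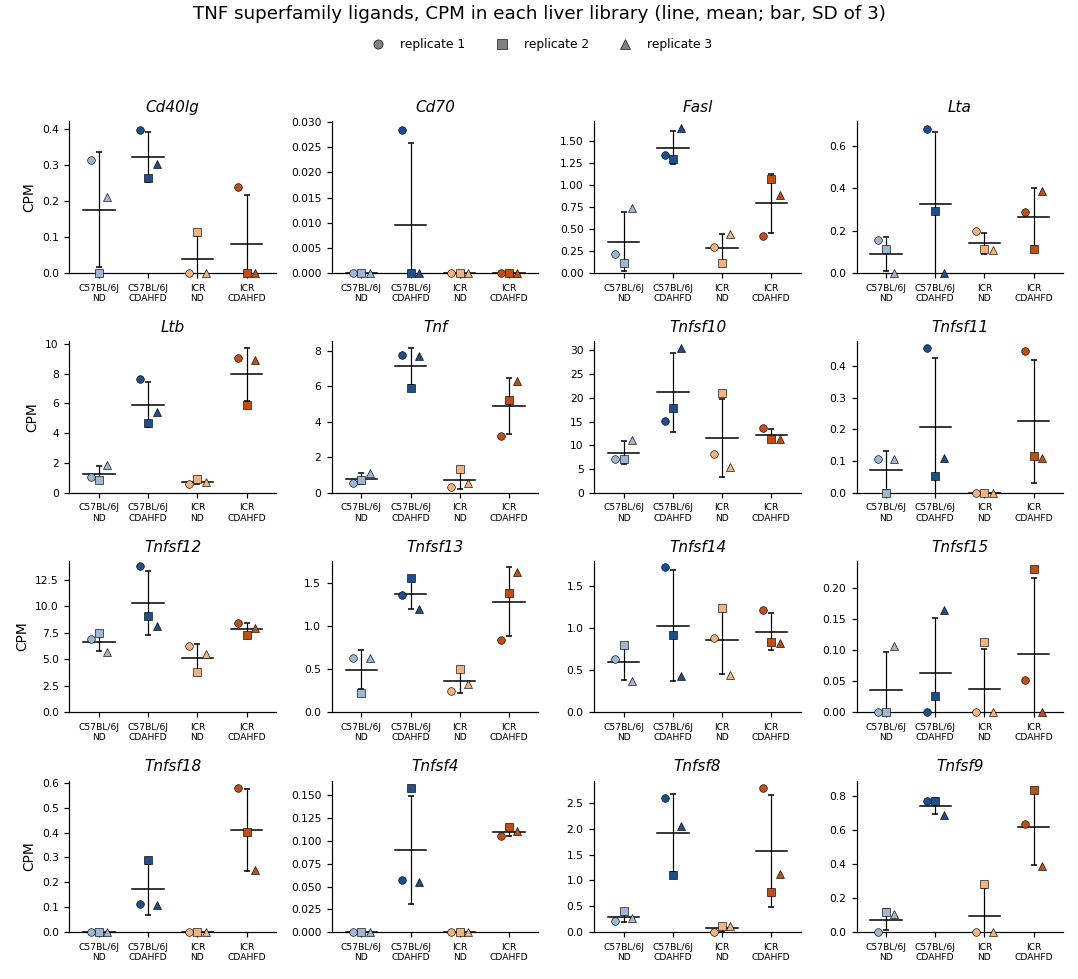
CPM of the 16 ligands in each of the 12 liver libraries, 1 panel a gene with its own axis from 0. Points are libraries with the replicate given by the symbol, lines are group means and bars the SD of 3, drawn only above 0; in the panel of Tnf the 6 CDAHFD libraries sit between 3.16 and 7.73 CPM, above all 6 ND libraries.

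More members of the family were higher on CDAHFD than on ND, and none was called lower. In C57BL/6J mice 31 members could be tested and 22 rose, 7 of 9 ligands and 15 of 22 receptors, where 26.0% of all tested genes rose and 21.2% fell. In ICR mice 30 could be tested and 11 rose, 4 of 9 ligands and 7 of 21 receptors, beside 20.1% of all genes that rose and 16.5% that fell. A call here means that the quasi-likelihood test of edgeR, with Benjamini-Hochberg adjustment across the whole table, gave a p under 0.05, and every adjusted p below is of this kind. The median log2 fold change of the tested members was 1.45 in C57BL/6J and 0.88 in ICR, beside 0.00 and -0.01 over all genes tested. A gene that is nearly silent on ND passes the filter on low counts only if it is high on CDAHFD. This favours rises among such members, so these counts are a description. Of the members that passed on their ND libraries alone, 14 of 19 rose in C57BL/6J and 5 of 18 in ICR, with median log2 fold changes of 1.37 and 0.65. The share of all genes under this restriction was not computed, and the ICR share lay near the 20.1% of all tested genes. Of the 12 members in each strain that needed their CDAHFD libraries to pass, 8 rose in C57BL/6J and 6 in ICR. Over all 41 members, with no filter, the CDAHFD mean was above the ND mean for 38 in C57BL/6J and 36 in ICR. The CDAHFD libraries lay above every ND library for 26 members in C57BL/6J, where 27.0% of all genes with a count did so, and for 19 in ICR, where 24.7% did.

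The 11 members that rose in ICR all rose in C57BL/6J too, that is 11 of 11 ICR calls and 11 of 22 C57BL/6J calls. These were the ligands Tnf, Ltb, Tnfsf8 and Tnfsf13 and the receptors Tnfrsf9, Tnfrsf10b, Tnfrsf11a, Tnfrsf12a, Tnfrsf13b, Tnfrsf21 and Tnfrsf23. The other 11 calls of C57BL/6J were the ligands Fasl, Tnfsf9 and Tnfsf10 and the receptors Cd27, Ngfr, Tnfrsf1b, Tnfrsf11b, Tnfrsf14, Tnfrsf19, Tnfrsf22 and Tnfrsf26. For none of these was the diet effect shown to differ between the strains, as described with the strain by diet term. Leaving out 1 library at a time, 16 of the 22 calls of C57BL/6J were kept every time, and Cd27, Fasl, Tnfrsf11b, Tnfrsf14, Tnfrsf22 and Tnfsf13 were lost at least once. In ICR 9 of the 11 calls were kept every time, and Tnfrsf9 and Tnfsf13 were lost at least once. Without ND-fed ICR replicate 2, 15 of 33 tested members rose in ICR, with Tnfrsf1a, Tnfsf9, Tnfsf10 and Tnfsf18 added. The share of all genes that rose without this library was not computed.

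**Figure D2:**
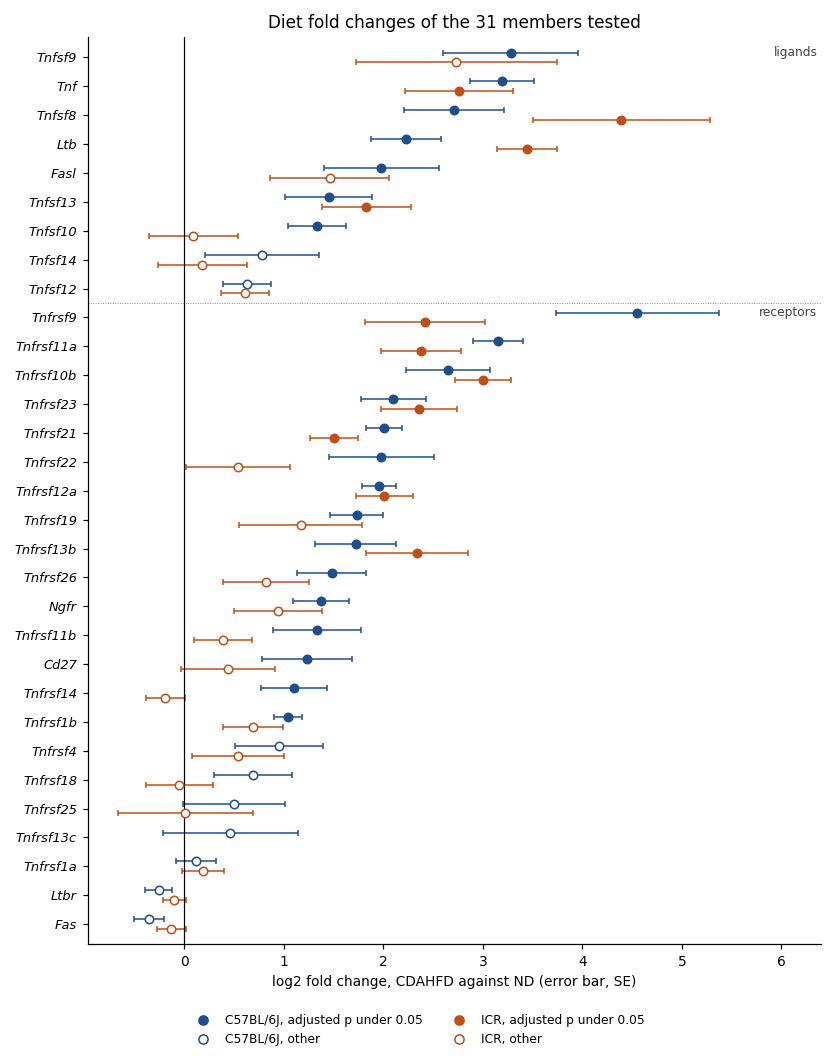
Log2 fold change of CDAHFD against ND with its SE for the 31 members tested, in C57BL/6J (blue) and ICR (orange), ligands above and receptors below the dotted line. Filled points passed an adjusted p of 0.05; Ltb, at 2.23 and 3.44, is filled in both strains, while Fas and Ltbr lie left of 0. The C57BL/6J value of Tnfrsf9 rests on 2 ND counts, and Tnfrsf13c was tested only in C57BL/6J.

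TNF itself, the cytokine made mainly by macrophages, was about 9.13-fold higher on CDAHFD in C57BL/6J and 6.75-fold higher in ICR. Tnf measured 7.73, 5.92 and 7.67 CPM in CDAHFD-fed and 0.524, 0.69 and 1.11 CPM in ND-fed C57BL/6J, and 3.16, 5.22 and 6.27 CPM in CDAHFD-fed and 0.295, 1.35 and 0.552 CPM in ND-fed ICR mice. The diets did not overlap in either strain, and the lowest CDAHFD library was replicate 1 of ICR. This gave log2 fold changes of 3.19 ± 0.32 (SE) in C57BL/6J, adjusted p 8.24e-05, and 2.76 ± 0.54 in ICR, adjusted p 0.00808. Without ND-fed ICR replicate 2 the ICR value was 3.52. Its gene lies on chromosome 17 (chr17:35199381-35202007, GRCm38, minus strand), between those of the 2 lymphotoxin subunits.

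The receptors of TNF behaved unequally. Tnfrsf1a, the death domain receptor found on most cells, was, with Ltbr, one of the 2 most abundant members per kilobase. Levels of Tnfrsf1a by library were 89.7, 110.01 and 114 CPM on CDAHFD and 75, 126 and 87 CPM on ND in C57BL/6J, and 100.03, 101 and 102 CPM and 70, 125 and 73.6 CPM in ICR. The diets overlapped in both strains, and replicate 2 was the highest ND library of each strain. On the log2 scale the difference was 0.12 ± 0.20 (SE, adjusted p 0.638) in C57BL/6J and 0.19 ± 0.21 (adjusted p 0.524) in ICR. Without ND-fed ICR replicate 2, its ICR value was 0.49 with an adjusted p of 0.0122, and with library size as the only scaling it was called higher in both strains, at 0.78 and 0.80 (adjusted p 0.00357 and 0.0159). Tnfrsf1b, the inducible receptor of leukocytes and endothelium, was 2.06-fold higher on CDAHFD in C57BL/6J. Replicates 1 to 3 gave 60.8, 68.9 and 74.6 CPM for Tnfrsf1b in CDAHFD-fed and 35.9, 35.1 and 28.2 CPM in ND-fed C57BL/6J mice, and 52.6, 82.9 and 105 CPM and 32.3, 64 and 53.5 CPM in ICR mice. In C57BL/6J the diets stood clearly apart, whereas in ICR the lowest CDAHFD library lay under the highest 2 ND libraries. For Tnfrsf1b the fitted log2 fold change was 1.04 ± 0.14 (SE) in C57BL/6J and 0.69 ± 0.30 in ICR, with adjusted p of 0.000397 and 0.114. Liver tissue holds many cell types, so for this and every other member more cells of a type and more RNA per cell cannot be told apart. Macrophage markers moved with Tnf, called in both strains, and with Tnfrsf1b, called in C57BL/6J only. The sum of 11 measured markers was 2498 to 4119 CPM on CDAHFD and 231 to 438 CPM on ND in C57BL/6J. Its largest part on CDAHFD was Spp1, at a mean of 1350 CPM (SD 942), a gene also counted among the cholangiocyte markers. In ICR the sums were 2741 to 4647 CPM and 179.9 to 303 CPM. All 10 tested macrophage markers rose in both strains. Csf1r, a defining macrophage receptor, was the exception in being too low to test, with 8 counts in CDAHFD-fed C57BL/6J mice and 0 in the other 3 groups. Beside these and all later marker counts, 26.0% of all tested genes rose and 21.2% fell in C57BL/6J, and 20.1% rose and 16.5% fell in ICR. The part of macrophages in the TNF result was not tested.

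The lymphotoxin ligands engage Ltbr, a receptor of stromal and parenchymal cells that drives the alternative NF-kB route. Ltb, the membrane-bound lymphotoxin subunit, rose 4.7-fold in C57BL/6J and 10.9-fold in ICR. In C57BL/6J Ltb was at 7.62, 4.68 and 5.45 CPM on CDAHFD and at 1.05, 0.863 and 1.85 CPM on ND, and in ICR at 9.04, 5.91 and 8.93 CPM on CDAHFD and at 0.59, 0.901 and 0.717 CPM on ND. All CDAHFD libraries lay above all ND libraries in both strains. The log2 fold change was 2.23 ± 0.35 (SE, adjusted p 0.000904) in C57BL/6J and 3.44 ± 0.30 (adjusted p 0.000554) in ICR. Lta, the soluble subunit, was too low to test, with 35 counts on CDAHFD and 5 on ND in C57BL/6J and 29 counts on CDAHFD and 8 on ND in ICR. Ltbr itself was abundant and was not called. Ltbr measured 63.9, 79.7 and 87.2 CPM in CDAHFD-fed and 85, 96.6 and 95.2 CPM in ND-fed C57BL/6J, and 85.5, 88 and 91.8 CPM in CDAHFD-fed and 81.3, 110.1 and 93.9 CPM in ND-fed ICR mice. The diets overlapped in both strains. This gave log2 fold changes of -0.26 ± 0.14 (SE) in C57BL/6J, adjusted p 0.168, and -0.10 ± 0.12 in ICR, adjusted p 0.575. With library size as the only scaling its sign turned and it was called higher in both strains, at 0.38 with an adjusted p of 0.0286 in C57BL/6J and 0.52 with 0.00894 in ICR. Tnfsf14, known as LIGHT and a second ligand of Ltbr, was not called, its log2 fold change being 0.78 in C57BL/6J and 0.18 in ICR with overlapping diets.

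Fas, the death receptor of hepatocytes, was the only 1 of the 41 members whose CDAHFD libraries all lay below its ND libraries in a strain. The share of all genes lying lower in this way was not computed, so this is a description of Fas only. Levels of Fas by library were 31.8, 30.9 and 29.2 CPM on CDAHFD and 37.1, 47.3 and 34.2 CPM on ND in C57BL/6J, and 39.1, 36.1 and 35.4 CPM and 33.3, 49.3 and 39.7 CPM in ICR. That separation was seen in C57BL/6J, and in ICR the diets overlapped. On the log2 scale the difference was -0.36 ± 0.15 (SE, adjusted p 0.0688) in C57BL/6J and -0.13 ± 0.15 (adjusted p 0.527) in ICR. Under library size scaling the sign of Fas turned in both strains, to 0.30 in C57BL/6J and to 0.48 in ICR, where it was called higher (adjusted p 0.0298). Without ND-fed C57BL/6J replicate 3 the value was -0.47 with an adjusted p of 0.0468. Fasl, its ligand on cytotoxic lymphocytes, was 3.94-fold higher on CDAHFD in C57BL/6J. Replicates 1 to 3 gave 1.34, 1.29 and 1.64 CPM for Fasl in CDAHFD-fed and 0.21, 0.115 and 0.741 CPM in ND-fed C57BL/6J mice, and 0.422, 1.07 and 0.885 CPM and 0.295, 0.113 and 0.441 CPM in ICR mice. Its diets stood apart in C57BL/6J and overlapped by a narrow margin in ICR, where CDAHFD replicate 1 fell within the ND range. For Fasl the fitted log2 fold change was 1.98 ± 0.58 (SE) in C57BL/6J and 1.46 ± 0.60 in ICR, with adjusted p of 0.0192 and 0.0945. The C57BL/6J call was lost without CDAHFD replicate 3, ND replicate 1 or ND replicate 2, with adjusted p of 0.0594, 0.0736 and 0.0535, and the value was 3.08 without ND replicate 3. Markers of NK and cytotoxic cells moved alongside, 8 of 8 tested rising in C57BL/6J and 4 of 8 in ICR, with sums of 28.5 to 31.6 CPM on CDAHFD and 7.91 to 11.3 CPM on ND in C57BL/6J. In ICR these sums were 18.6 to 21 CPM and 5.16 to 17.9 CPM, and their part in the Fasl values was not tested.

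TRAIL is encoded by Tnfsf10, and mice have a single death receptor for it, Tnfrsf10b. In C57BL/6J Tnfsf10 was at 15.1, 17.8 and 30.6 CPM on CDAHFD and at 7.12, 7.08 and 11.2 CPM on ND, and in ICR at 13.7, 11.3 and 11.4 CPM on CDAHFD and at 8.16, 21 and 5.46 CPM on ND. In C57BL/6J every CDAHFD library was above every ND library, while in ICR the highest of all 6 libraries was ND replicate 2. The log2 fold change was 1.33 ± 0.29 (SE, adjusted p 0.00531) in C57BL/6J and 0.09 ± 0.45 (adjusted p 0.894) in ICR. Without that library the ICR value was 0.82 with an adjusted p of 0.037, and it turned to -0.02 without CDAHFD replicate 1, -0.10 without ND replicate 1 and -0.26 without ND replicate 3. Tnfrsf10b rose 6.28-fold in C57BL/6J and 8.01-fold in ICR. Tnfrsf10b measured 5.51, 4.25 and 7.72 CPM in CDAHFD-fed and 1.05, 1.32 and 0.424 CPM in ND-fed C57BL/6J, and 10.8, 9.54 and 8.07 CPM in CDAHFD-fed and 1.47, 0.845 and 1.21 CPM in ND-fed ICR mice. No ND library reached the CDAHFD range in either strain. This gave log2 fold changes of 2.65 ± 0.42 (SE) in C57BL/6J, adjusted p 0.000875, and 3.0 ± 0.28 in ICR, adjusted p 0.000673. The TRAIL receptors that lack a working death domain in mice, Tnfrsf22 and Tnfrsf23, lie with Tnfrsf26 on chromosome 7. Levels of Tnfrsf23 by library were 2.81, 3.41 and 3.37 CPM on CDAHFD and 0.524, 0.863 and 0.847 CPM on ND in C57BL/6J, and 3.45, 3.31 and 4.42 CPM and 0.983, 0.788 and 0.386 CPM in ICR. These libraries separated by diet in both strains. On the log2 scale the difference was 2.10 ± 0.33 (SE, adjusted p 0.000858) in C57BL/6J and 2.36 ± 0.38 (adjusted p 0.00408) in ICR. Replicates 1 to 3 gave 1.08, 1 and 1.34 CPM for Tnfrsf22 in CDAHFD-fed and 0.524, 0.115 and 0.212 CPM in ND-fed C57BL/6J mice, and 0.975, 1.04 and 1.44 CPM and 0.393, 0.563 and 1.43 CPM in ICR mice. ND-fed ICR replicate 3 was nearly as high as the highest CDAHFD library for Tnfrsf22, and in C57BL/6J the diets stood apart. For Tnfrsf22 the fitted log2 fold change was 1.98 ± 0.53 (SE) in C57BL/6J and 0.54 ± 0.52 in ICR, with adjusted p of 0.0131 and 0.452. Without ND-fed C57BL/6J replicate 3 the call of Tnfrsf22 was lost (adjusted p 0.0566), and without ND replicate 1 its value was 2.76. The longest transcripts of Tnfrsf22 and Tnfrsf23 aligned over 2172 bases at 91.2% identity (GENCODE M21), and the treatment of reads fitting both genes is not stated, so the split between them is uncertain. Tnfrsf26 rose in C57BL/6J and was not called in ICR, with log2 fold changes of 1.48 ± 0.35 and 0.82 ± 0.43 (SE).

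**Figure D3:**
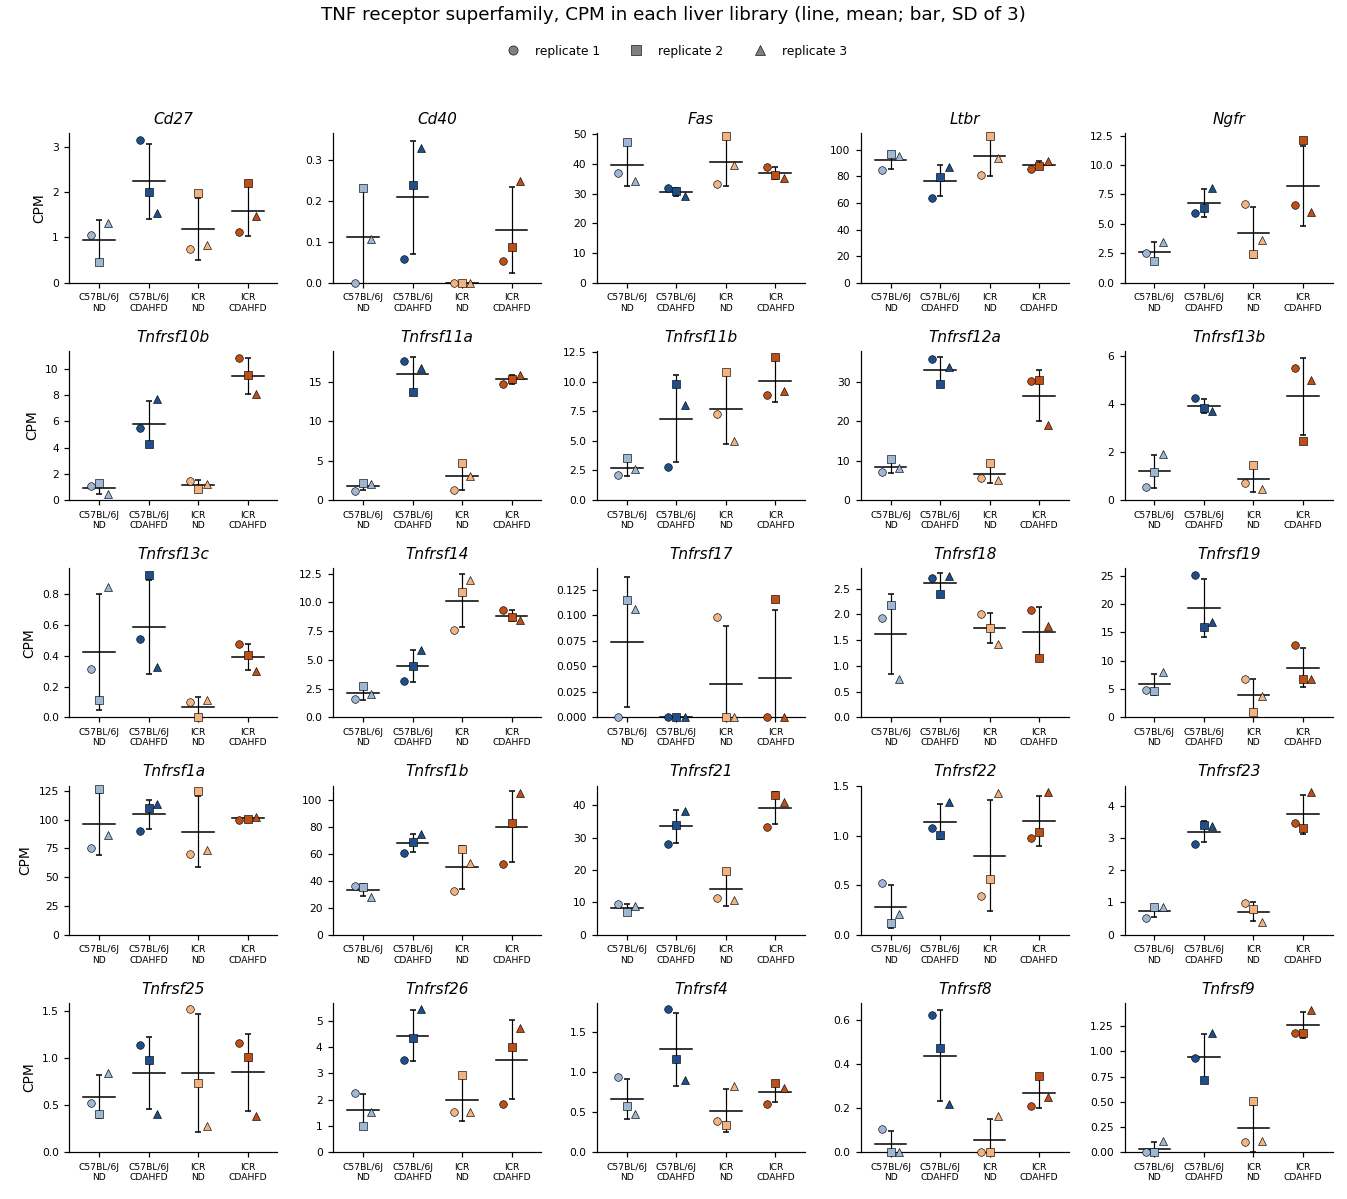
CPM of the 25 receptors in each liver library, 1 panel a gene with its own axis from 0. Points are libraries, lines group means and bars the SD of 3, drawn only above 0; Tnfrsf11a and Tnfrsf12a separate the diets in both strains, Tnfrsf1a does not, and Tnfrsf14 is higher in ND-fed ICR (at least 7.62 CPM) than in ND-fed C57BL/6J mice (at most 2.76 CPM).

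RANK, encoded by Tnfrsf11a, is known as the receptor that drives osteoclast formation and is also carried by macrophages and dendritic cells. It rose 8.86-fold in C57BL/6J and 5.21-fold in ICR. In C57BL/6J Tnfrsf11a was at 17.6, 13.7 and 16.8 CPM on CDAHFD and at 1.2, 2.19 and 2.07 CPM on ND, and in ICR at 14.8, 15.4 and 15.9 CPM on CDAHFD and at 1.28, 4.67 and 3.03 CPM on ND. CDAHFD libraries lay in a narrow range far above ND in both strains, with ND-fed ICR replicate 2 the highest ND library. The log2 fold change was 3.15 ± 0.25 (SE, adjusted p 2.42e-05) in C57BL/6J and 2.38 ± 0.40 (adjusted p 0.00455) in ICR. Its ligand RANKL, Tnfsf11, was near the limit of detection. Tnfsf11 measured 0.455, 0.0528 and 0.11 CPM in CDAHFD-fed and 0.105, 0 and 0.106 CPM in ND-fed C57BL/6J, and 0.448, 0.115 and 0.111 CPM in CDAHFD-fed and 0 in all 3 libraries in ND-fed ICR mice. Replicate 1 was the highest CDAHFD library of each strain. It had 22 counts on CDAHFD and 4 on ND in C57BL/6J and 25 counts on CDAHFD and 0 on ND in ICR, and 17 of the ICR counts came from CDAHFD replicate 1. The ICR level on CDAHFD was 4.31 times a floor of 3 counts over the ND group, and 2.12 times without that library. The counting error of the CDAHFD group is not included in such folds over the floor, so the fold itself may be lower. Leaving out 1 ND library, which shrinks the group behind the floor, gave 2.75 to 2.95. Osteoprotegerin, Tnfrsf11b, is a secreted decoy that binds both RANKL and TRAIL. Levels of Tnfrsf11b by library were 2.79, 9.85 and 8.03 CPM on CDAHFD and 2.1, 3.57 and 2.59 CPM on ND in C57BL/6J, and 8.86, 12.1 and 9.2 CPM and 7.28, 10.9 and 5.02 CPM in ICR. The diets overlapped in both strains, and CDAHFD-fed C57BL/6J replicate 1 was far below replicates 2 and 3. This gave log2 fold changes of 1.33 ± 0.44 (SE) in C57BL/6J, adjusted p 0.0334, and 0.39 ± 0.29 in ICR, adjusted p 0.319. Without CDAHFD replicate 2 or 3, or ND replicate 1 or 3, the C57BL/6J call was lost, with adjusted p from 0.0923 to 0.124.

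The TWEAK receptor Fn14, encoded by Tnfrsf12a, is small, lacks a death domain and is known to appear on hepatocytes and progenitor cells after injury. It rose 3.9-fold in C57BL/6J and 4.04-fold in ICR. Replicates 1 to 3 gave 35.9, 29.5 and 33.7 CPM for Tnfrsf12a in CDAHFD-fed and 7.12, 10.4 and 8 CPM in ND-fed C57BL/6J mice, and 30.1, 30.4 and 19 CPM and 5.46, 9.35 and 5.08 CPM in ICR mice. Every CDAHFD library was above every ND library in both strains, and CDAHFD-fed ICR replicate 3 was the lowest of its group. On the log2 scale the difference was 1.96 ± 0.17 (SE, adjusted p 3.84e-05) in C57BL/6J and 2.01 ± 0.29 (adjusted p 0.00279) in ICR. Tnfsf12, which encodes TWEAK, gave smaller differences. In C57BL/6J Tnfsf12 was at 13.8, 9.06 and 8.19 CPM on CDAHFD and at 6.92, 7.48 and 5.67 CPM on ND, and in ICR at 8.43, 7.29 and 7.93 CPM on CDAHFD and at 6.24, 3.77 and 5.52 CPM on ND. Here too the diets did not overlap in either strain, and the highest library was CDAHFD-fed C57BL/6J replicate 1. For Tnfsf12 the fitted log2 fold change was 0.63 ± 0.24 (SE) in C57BL/6J and 0.61 ± 0.24 in ICR, with adjusted p of 0.0559 and 0.0876. By the Wald test of DESeq2 the adjusted p was 0.0451 and 0.0487, and in edgeR it was 0.0464 without CDAHFD replicate 3 in C57BL/6J and 0.0428 without ND replicate 1 in ICR. Tnfsf12 lies beside Tnfsf13 on chromosome 11, and a readthrough gene, Tnfsfm13, shares 48.3% of the exon bases of Tnfsf12 and 60.0% of those of Tnfsf13 (GENCODE M21), so reads of these genes may have been counted in part elsewhere or not at all.

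The ligands and receptors of lymphocyte costimulation had few counts in liver. Of these, Tnfsf8, Tnfrsf9, Tnfsf9 and Cd27 were called in C57BL/6J and Tnfsf8 and Tnfrsf9 in ICR, and the others were not called or too low to test. CD30 ligand, Tnfsf8, had one of the steepest rises of the family. Tnfsf8 measured 2.59, 1.11 and 2.05 CPM in CDAHFD-fed and 0.21, 0.403 and 0.265 CPM in ND-fed C57BL/6J, and 2.79, 0.778 and 1.13 CPM in CDAHFD-fed and 0, 0.113 and 0.11 CPM in ND-fed ICR mice. No ND library reached the lowest CDAHFD library, and replicate 1 was the highest CDAHFD library in both strains. The log2 fold change was 2.71 ± 0.50 (SE, adjusted p 0.00195) in C57BL/6J and 4.39 ± 0.89 (adjusted p 0.00923) in ICR. The ICR value rests on 4 ND counts and was 3.64 without CDAHFD replicate 1 and 3.80 without ND replicate 1. Its receptor Tnfrsf8 was not tested for low counts, with 48 counts on CDAHFD and 2 on ND in C57BL/6J and 29 counts on CDAHFD and 3 on ND in ICR. The ratio of levels was 12.1 (95% exact interval of counting error 3.18 to 103) in C57BL/6J and 4.99 (1.55 to 25.6) in ICR. Without CDAHFD replicate 3 or ND replicate 1 of C57BL/6J it was called, with adjusted p of 0.0183 and 0.0192, and also with no filter on low counts (0.0245). Tnfrsf9, the activation receptor of T and NK cells, was nearly silent on ND. Levels of Tnfrsf9 by library were 0.938, 0.713 and 1.18 CPM on CDAHFD and 0, 0 and 0.106 CPM on ND in C57BL/6J, and 1.19, 1.18 and 1.41 CPM and 0.0983, 0.507 and 0.11 CPM in ICR. The diets stood apart in both strains. This gave log2 fold changes of 4.55 ± 0.82 (SE) in C57BL/6J, adjusted p 0.00175, and 2.42 ± 0.60 in ICR, adjusted p 0.0189. In C57BL/6J the ND group held 2 counts, both in replicate 3, and the ratio of levels was 26.0 (7.02 to 218). Without ND replicate 2 the ICR value was 3.54. In ICR the call was lost without CDAHFD replicate 2 or 3 or ND replicate 3, with adjusted p of 0.0524, 0.061 and 0.0723. Its ligand Tnfsf9 rose in C57BL/6J and was not called in ICR, from 81 counts on CDAHFD and 4 on ND in C57BL/6J and 67 counts on CDAHFD and 5 on ND in ICR. Its log2 fold change was 3.28 ± 0.68 (SE) and 2.73 ± 1.01, and its adjusted p was 0.00377 and 0.0706. Without ND-fed ICR replicate 2 that p was 0.0121.

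GITR ligand, Tnfsf18, had counts in the CDAHFD libraries and none in the ND libraries. Replicates 1 to 3 gave 0.114, 0.291 and 0.11 CPM for Tnfsf18 in CDAHFD-fed and 0 in all 3 libraries in ND-fed C57BL/6J mice, and 0.58, 0.403 and 0.249 CPM and 0 in all 3 libraries in ICR mice. All 6 CDAHFD libraries held counts and all 6 ND libraries were at 0. The CDAHFD level was 3.2 times a floor of 3 counts over the ND group in C57BL/6J and 7.75 times in ICR. The counting error of the CDAHFD group is not included, so the fold itself may be lower. Leaving out 1 library gave 2.06 to 3.79 in C57BL/6J, the lowest without CDAHFD replicate 2. In ICR it gave 4.95 to 9.29, the lowest without ND replicate 1. Tnfsf18 was too low to test, but in ICR it was called with no filter on low counts (adjusted p 0.0181) and without CDAHFD replicate 3 or any ND replicate (0.0213 to 0.0376). Tnfsf4, the OX40 ligand, was at 0 on ND in both strains and had 2, 6 and 2 counts in the CDAHFD libraries of C57BL/6J and 4, 4 and 4 in those of ICR. Its fold over the floor was 1.68 in C57BL/6J, 1.03 without CDAHFD replicate 2, and 2.07 in ICR. An ND group of these sizes allows up to 3 counts where 0 was seen. Because low counts in this table are mostly even, a floor of 6 counts was also tried after the values were seen. The folds over the floor became 1.6 and 3.88 for Tnfsf18, 2.15 for Tnfsf11 in ICR and 0.842 and 1.03 for Tnfsf4. The receptors of both ligands were measured more deeply and were not called, GITR (Tnfrsf18) at 0.69 and -0.05 and OX40 (Tnfrsf4) at 0.95 and 0.54 on the log2 scale. Cd40, the receptor of antigen-presenting cells for T cell help, was among the lowest members. In C57BL/6J Cd40 was at 0.0568, 0.238 and 0.329 CPM on CDAHFD and at 0, 0.23 and 0.106 CPM on ND, and in ICR at 0.0527, 0.0864 and 0.249 CPM on CDAHFD and at 0 in all 3 libraries on ND. In ICR the 3 ND libraries were at 0 and the CDAHFD level was 2.41 times the floor of 3 counts. It was 1.29 times without CDAHFD replicate 3 and 1.21 times with a floor of 6, and in C57BL/6J the diets overlapped. Cd40lg had 35 counts on CDAHFD and 10 on ND in C57BL/6J and 9 counts on CDAHFD and 2 on ND in ICR, and Cd70 reached 1 count over all libraries. Cd27, the receptor of Cd70 on T and NK cells, rose in C57BL/6J by 1.23 ± 0.45 (SE, adjusted p 0.0497) and was not called in ICR (0.44 ± 0.47). That call was lost without any single one of 5 of the 6 libraries, with adjusted p from 0.0502 to 0.142, and with size factors of the DESeq2 type (0.0504) or 1 fit of 12 libraries (0.0604). Tnfsf15 had 7 counts on CDAHFD and 2 on ND in C57BL/6J and 10 counts on CDAHFD and 2 on ND in ICR, and its receptor Tnfrsf25 was not called, at 0.50 and 0.01. T cell markers stood beside these genes, with 7 of 9 rising in C57BL/6J and 5 of 9 in ICR and sums of 26 to 36.1 CPM on CDAHFD and 11.2 to 13.3 CPM on ND in C57BL/6J. In ICR the sums were 17.3 to 26.6 CPM and 9.71 to 13.7 CPM, and their part in the costimulation genes was not tested.

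In the branch that acts on B cells, the ligand Tnfsf13 (APRIL) and the receptor Tnfrsf13b (TACI) rose in both strains. Tnfrsf13b measured 4.23, 3.83 and 3.7 CPM in CDAHFD-fed and 0.524, 1.15 and 1.91 CPM in ND-fed C57BL/6J, and 5.48, 2.48 and 5 CPM in CDAHFD-fed and 0.688, 1.46 and 0.441 CPM in ND-fed ICR mice. The diets did not overlap for Tnfrsf13b. On the log2 scale the difference was 1.72 ± 0.41 (SE, adjusted p 0.00782) in C57BL/6J and 2.34 ± 0.51 (adjusted p 0.0121) in ICR. Levels of Tnfsf13 by library were 1.36, 1.56 and 1.21 CPM on CDAHFD and 0.629, 0.23 and 0.635 CPM on ND in C57BL/6J, and 0.843, 1.38 and 1.63 CPM and 0.246, 0.507 and 0.331 CPM in ICR. Tnfsf13 also stood apart by diet in both strains. For Tnfsf13 the fitted log2 fold change was 1.45 ± 0.44 (SE) in C57BL/6J and 1.83 ± 0.45 in ICR, with adjusted p of 0.0236 and 0.0177. Its call was lost without 3 of the 6 libraries in C57BL/6J (CDAHFD replicates 2 and 3 and ND replicate 2, adjusted p 0.051 to 0.0717) and without 4 of 6 in ICR (CDAHFD replicates 2 and 3 and ND replicates 1 and 3, adjusted p 0.0503 to 0.0709). The BAFF receptor Tnfrsf13c was tested in C57BL/6J, at 0.46 ± 0.68 (SE), and in ICR it had 43 counts on CDAHFD and 4 on ND. Its diets overlapped in C57BL/6J and stood apart in ICR, where it was called with 1 fit of 12 libraries (2.40, adjusted p 0.0475). The plasma cell receptor Tnfrsf17 had 0 counts on CDAHFD and 4 on ND in C57BL/6J and 4 counts on CDAHFD and 2 on ND in ICR, and Tnfsf13b (BAFF) was not analysed here. B and plasma cell markers did not rise, with 0 of 6 higher and 1 lower (the plasma cell gene Mzb1) in C57BL/6J and 0 of 5 in either direction in ICR. Their sums were 9.41 to 11.1 CPM on CDAHFD and 11 to 16.7 CPM on ND in C57BL/6J, and 7.03 to 10.3 CPM and 4 to 5.21 CPM in ICR.

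Receptors without a ligand of the family include Tnfrsf21 (DR6), Tnfrsf19 (TROY) and Ngfr, the neurotrophin receptor that marks hepatic stellate cells. Tnfrsf21 rose 4.02-fold in C57BL/6J and 2.82-fold in ICR. Replicates 1 to 3 gave 28.1, 34 and 38.3 CPM for Tnfrsf21 in CDAHFD-fed and 9.38, 6.9 and 8.74 CPM in ND-fed C57BL/6J mice, and 33.4, 43 and 41 CPM and 11.5, 19.7 and 10.8 CPM in ICR mice. The diets stood apart in both strains, with ND-fed ICR replicate 2 the highest ND library. The log2 fold change was 2.01 ± 0.18 (SE, adjusted p 3.8e-05) in C57BL/6J and 1.50 ± 0.24 (adjusted p 0.00387) in ICR. For Tnfrsf19 the 2 strains were placed differently. In C57BL/6J Tnfrsf19 was at 25.2, 15.9 and 16.9 CPM on CDAHFD and at 4.82, 4.66 and 8 CPM on ND, and in ICR at 12.8, 6.8 and 6.77 CPM on CDAHFD and at 6.78, 1.01 and 3.86 CPM on ND. In C57BL/6J the diets did not overlap, in ICR they did by a small margin, and replicate 1 was the highest CDAHFD library of each strain. This gave log2 fold changes of 1.73 ± 0.27 (SE) in C57BL/6J, adjusted p 0.000786, and 1.17 ± 0.62 in ICR, adjusted p 0.177. Ngfr rose in C57BL/6J by 1.37 ± 0.28 (SE, adjusted p 0.00372) and was not called in ICR (0.94 ± 0.44), where ND-fed replicate 1 at 6.69 CPM reached the CDAHFD range. Without that library the ICR value was 1.46 with an adjusted p of 0.0337. Stellate cell and myofibroblast markers rose for 9 of 10 genes in both strains, their sums being 1214 to 1947 CPM and 133 to 166 CPM in C57BL/6J on CDAHFD and ND. In ICR they were 1335 to 1889 CPM and 96.1 to 199 CPM, and their part in the Ngfr and Tnfrsf19 values was not tested.

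Per kilobase of exon the family was led by the same 2 receptors in all 4 groups. Tnfrsf1a was at 40.3, 37.1, 39 and 34.6 CPM per kb in CDAHFD-fed C57BL/6J, ND-fed C57BL/6J, CDAHFD-fed ICR and ND-fed ICR mice, in that order. Ltbr was at 32.7, 39.2, 37.6 and 40.4 CPM per kb, and the order of these receptors turned between groups. On CDAHFD they were followed by Tnfrsf1b (17.8 in C57BL/6J and 21 in ICR), Tnfrsf12a (17.1 and 13.7) and Fas (14.8 and 17.9), and the order of Tnfrsf12a and Fas differed between the strains. On ND, Fas came next at 19.2 and 19.8 CPM per kb, then Tnfrsf1b at 8.66 and 13.1, and Tnfrsf12a was at 4.39 and 3.43. The highest ligand per kb was Tnfsf12, at 6.83 and 4.41 CPM per kb in C57BL/6J on CDAHFD and ND, and in CDAHFD-fed ICR mice it stood beside Ltb, at 5.21 and 5.25. At the low end Cd70, Tnfsf15 and Tnfsf4 did not exceed 0.0599 CPM per kb in any group.

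**Figure D4:**
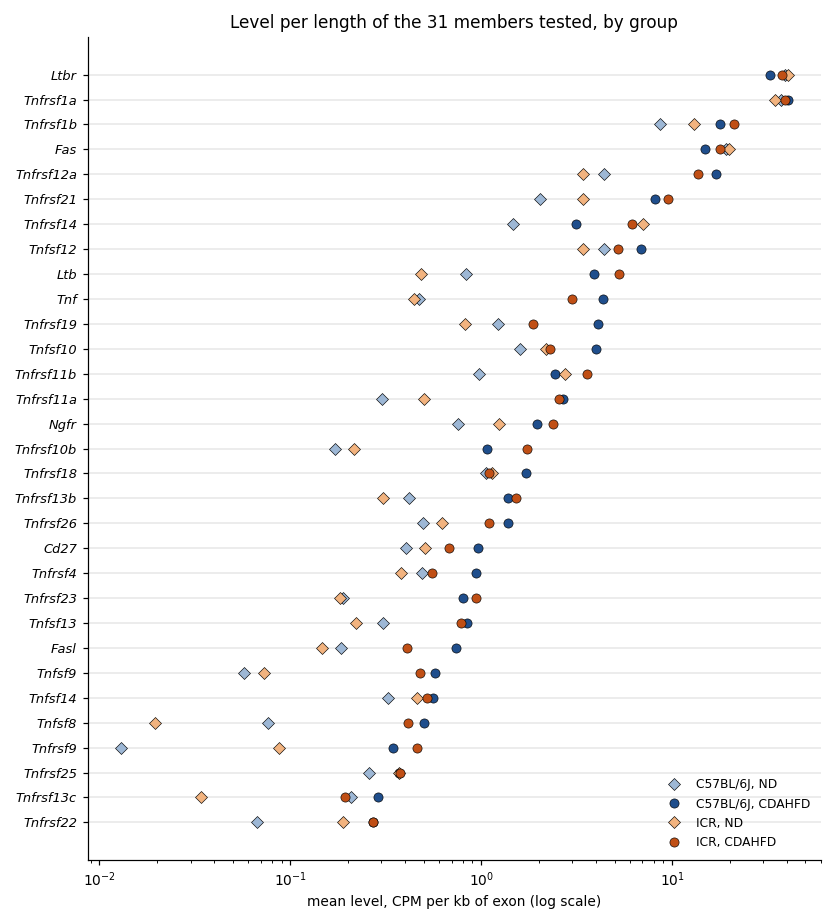
Mean level of the 31 tested members in CPM per kb of exon on a log axis, diamonds for ND and circles for CDAHFD, in C57BL/6J (blue) and ICR (orange). Ltbr and Tnfrsf1a lie at the top with the 4 groups close together, between 32.7 and 40.4 CPM per kb, while for Tnf and Tnfsf8 the diamonds lie far left of the circles.

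Whether the diet effect differs between the strains was tested by the strain by diet term in all 12 libraries. None of the 31 tested members passed, and 0.180% of all genes did. At an unadjusted p under 0.05 there were 2 of the 31, Ltb and Tnfrsf14, beside 1319 of all 13901 genes tested, and DESeq2 called 0. The Ltb difference in log2 fold change, ICR minus C57BL/6J, was 1.20 ± 0.47 (SE, adjusted p 0.424), and that of Tnfrsf14 was -1.29 ± 0.39 (adjusted p 0.265). Next by p came Tnfsf10 at -1.25 ± 0.60, Tnfrsf22 at -1.44 ± 0.78 and Tnfrsf9 at -2.14 ± 1.17, with adjusted p of 0.547, 0.614 and 0.615. The median over the tested members was -0.44, beside -0.01 over all genes.

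On ND, 3 members were higher in ICR than in C57BL/6J and 0 were lower, where 11.3% of all genes were higher and 10.1% lower. On CDAHFD, 1 member was higher and 0 were lower, beside 8.13% and 7.50% of all genes. Tnfrsf14 (HVEM), the receptor of LIGHT on lymphocytes and epithelia, was called on both diets. Tnfrsf14 measured 3.13, 4.49 and 5.89 CPM in CDAHFD-fed and 1.57, 2.76 and 2.01 CPM in ND-fed C57BL/6J, and 9.36, 8.73 and 8.51 CPM in CDAHFD-fed and 7.62, 10.9 and 12 CPM in ND-fed ICR mice. ICR libraries lay above C57BL/6J libraries on each diet, and the ND-fed ICR libraries spanned the CDAHFD-fed ones. ICR exceeded C57BL/6J by 2.27 ± 0.29 (SE) on ND (adjusted p 0.000518) and 0.98 ± 0.27 on CDAHFD (adjusted p 0.0299) on the log2 scale. The ND call was kept without any 1 library, and the CDAHFD call was lost without CDAHFD replicate 1 or 2 of C57BL/6J (adjusted p 0.115 and 0.083) or any CDAHFD replicate of ICR (0.0636, 0.0837 and 0.082). By diet, Tnfrsf14 rose in C57BL/6J by 1.10 ± 0.33 (SE, adjusted p 0.0231) and was at -0.19 ± 0.20 in ICR, a sign that turned to 0.43 under library size scaling. The C57BL/6J diet call was lost without CDAHFD replicate 2 or 3 or ND replicate 1 or 3 (adjusted p 0.0555 to 0.114).

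The other members higher in ND-fed ICR mice were Tnfrsf11b, by 1.49 ± 0.43 (adjusted p 0.0305), and Tnfrsf21, by 0.74 ± 0.23 (adjusted p 0.0395). For Tnfrsf11b the libraries of the strains did not overlap on ND, and the call was lost without ND replicate 1 or 3 of C57BL/6J or ND replicate 2 of ICR (adjusted p 0.11, 0.0994 and 0.108). For Tnfrsf21 they also stood apart, by a narrow gap. That call was lost without any ND replicate of C57BL/6J, ND replicate 2 of ICR or CDAHFD replicate 2 or 3 of ICR, and the value without ND-fed ICR replicate 2 was 0.42 with an adjusted p of 0.154. With library size as the only scaling the adjusted p of Tnfrsf21 was 0.053. On CDAHFD the next members by p were Tnfrsf19, at -1.13 ± 0.48, and Tnfrsf10b, at 0.70 ± 0.32, with adjusted p of 0.123 and 0.158. Tnfrsf19 was called, at -1.13 with an adjusted p of 0.032, without ND-fed ICR replicate 2. Without ND-fed ICR replicate 1, Tnfrsf11a, Tnfrsf1b and Tnfrsf22 were also called higher on ND (adjusted p 0.0122, 0.0233 and 0.0449), and without ND-fed C57BL/6J replicate 2 Tnfrsf13c was called lower (0.0387). DESeq2 with all libraries also called Tnfrsf13c lower in ND-fed ICR, at -2.61 (adjusted p 0.0432). ICR reads were aligned to a reference built from C57BL/6J, and whether sequence differences moved these strain comparisons was not tested.

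Of the superfamily genes whose names the rule does not reach, Eda2r, the receptor of an ectodysplasin isoform, rose in both strains, at 2.28 ± 0.37 in C57BL/6J and 3.32 ± 0.24 in ICR. Eda, its ligand gene, was at -0.26 ± 0.34 in C57BL/6J and -1.13 ± 0.30 in ICR, called lower in ICR only, a call lost under library size scaling and without any single library but ND replicate 1 (adjusted p 0.0596 to 0.101), and Edar and Relt were too low to test, with at most 20 and 6 counts in a library. Genes around the receptors were counted in lists. Of 29 receptor-proximal adaptors and regulators, 10 rose and 3 fell (Tab2, Cflar and Traf4) in C57BL/6J, and 7 rose and 4 fell (Tab2, Sharpin, Cyld and Tab3) in ICR, beside the 26.0% and 20.1% of all tested genes that rose and the 21.2% and 16.5% that fell. The rises counted 9 to 11 and 7 to 10 when 1 library was left out. The falls in C57BL/6J counted 1 without ND replicate 3. Those in ICR counted 1 without any CDAHFD replicate or ND replicate 3, 2 without ND replicate 2 and 6 without ND replicate 1. With library size as the only scaling these splits became 23 to 0 and 19 to 0, so the falls are relative to the TMM scale. On the log2 scale, with SE, the rises included Tnfaip3 (A20), a ubiquitin-editing brake on NF-kB that is itself an NF-kB target, at 2.70 ± 0.32 in C57BL/6J and 2.80 ± 0.45 in ICR. Its partner Tnip1 was at 2.03 ± 0.13 in C57BL/6J and 2.11 ± 0.14 in ICR. Traf1, an NF-kB-induced adaptor, was at 2.51 ± 0.46 in C57BL/6J and 2.93 ± 0.32 in ICR, and Birc3, an inhibitor of apoptosis bound to TRAF proteins, was at 0.84 ± 0.17 in C57BL/6J and 0.66 ± 0.11 in ICR. Map3k14, the kinase of the alternative NF-kB route, was at 1.80 ± 0.22 in C57BL/6J and 1.11 ± 0.20 in ICR, and Tnfaip8l2 was at 1.97 ± 0.25 in C57BL/6J and 1.90 ± 0.44 in ICR. The core death signalling genes Fadd, Tradd, Ripk1 and Casp8 were not called in either strain, their log2 fold changes lying between -0.33 and 0.09. These 4 were singled out after their values were seen. Mlkl and Ripk3, cell death genes of the same list, rose in C57BL/6J, at 2.13 ± 0.34 and 1.22 ± 0.33 (adjusted p 0.000907 and 0.0141). The Ripk3 call was lost without CDAHFD replicate 3 (adjusted p 0.0551) and with 1 fit of 12 libraries (0.0523). Neither gene was called in ICR (adjusted p 0.0935 and 0.833). Mlkl was called there by DESeq2 (adjusted p 0.0448), without ND replicate 2 (0.00168), under library size scaling (0.0125) and with the replicate number as a block (0.0426). Under library size scaling Casp8 was called higher in both strains and Fadd and Ripk1 in C57BL/6J, and without ND replicate 1 Ripk1 was called lower in ICR (-0.54, adjusted p 0.0357).

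Of 13 tested NF-kB subunits, inhibitors and kinases, 7 rose and 1 fell in C57BL/6J, and 4 rose and 2 fell (Chuk and Ikbkg) in ICR, and the splits were 12 to 0 and 10 to 0 under library size scaling. Beside this list and that of ligand shedding, 26.0% of all tested genes rose and 21.2% fell in C57BL/6J. In ICR 20.1% of all tested genes rose and 16.5% fell. Nfkbie, an inhibitor of the pathway, rose by 2.03 ± 0.20 in C57BL/6J and 2.04 ± 0.28 in ICR. Nfkbid, another inhibitor protein, rose by 2.66 ± 0.33 in C57BL/6J and 2.13 ± 0.47 in ICR. Nfkb1, the precursor of the p50 subunit, was at 0.89 ± 0.13 in C57BL/6J and 0.77 ± 0.11 in ICR. Chuk, a kinase of the pathway, fell in both strains, at -0.92 ± 0.15 in C57BL/6J and -0.66 ± 0.16 in ICR, and was not called lower under library size scaling. The ICR call of Chuk was lost without CDAHFD replicate 2 or 3 or ND replicate 3 (adjusted p 0.0547 to 0.0718) and that of Ikbkg without CDAHFD replicate 3 or ND replicate 3 (0.061 and 0.0503). The rises in C57BL/6J counted 5 to 6 when 1 library was left out. In ICR they counted 7 without ND replicate 2, and the rise of Ikbkb was lost without any single library (adjusted p 0.0518 to 0.172). Nfkbia, the classical inhibitor, was not called, at 0.38 ± 0.24 in C57BL/6J and 0.11 ± 0.23 in ICR, but it was without ND-fed ICR replicate 1 (0.44, adjusted p 0.0201) and in both strains under library size scaling. Nfkb2, the subunit of the alternative route, was too low to test, with at most 8 counts in a library. Among 7 genes of ligand shedding 4 rose and 1 fell (Sppl2b) in C57BL/6J and 2 rose in ICR, with splits of 6 to 0 and 5 to 0 under library size scaling. The call of Sppl2b was lost without CDAHFD replicate 2 or 3 or ND replicate 1 (adjusted p 0.0566 to 0.0751). Adam10, a sheddase, was at 0.94 ± 0.11 in C57BL/6J and 0.76 ± 0.15 in ICR, and Timp3, an inhibitor of sheddases, at 2.38 ± 0.35 in C57BL/6J and 2.05 ± 0.43 in ICR. Rhbdf1 and Rhbdf2, which carry the TNF sheddase Adam17 to the cell surface, rose in C57BL/6J and were not called in ICR. Rhbdf1 was at 1.74 ± 0.15 in C57BL/6J and 0.90 ± 0.37 in ICR, and Rhbdf2 was at 1.08 ± 0.14 in C57BL/6J and 0.61 ± 0.28 in ICR. Without ND-fed ICR replicate 2, Rhbdf2 was called in ICR (0.93, adjusted p 0.0188), and DESeq2 called Rhbdf1 there (0.91, adjusted p 0.044).

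TNF-induced genes rose for 11 of 18 tested in C57BL/6J, with 2 lower (Sod2 and Selp), and for 12 of 20 in ICR, with 1 lower (Sod2), and the splits were 13 to 1 and 14 to 1 under library size scaling. Beside this list and the lymphoid list below, 26.0% of all tested genes rose and 21.2% fell in C57BL/6J. In ICR 20.1% of all tested genes rose and 16.5% fell. The monocyte chemokine Ccl2 rose by 3.55 ± 0.40 in C57BL/6J and 3.47 ± 0.55 in ICR, and the related Ccl7 rose by 4.06 ± 0.37 in C57BL/6J and 3.90 ± 0.59 in ICR. Vcam1, an adhesion molecule, was at 2.66 ± 0.15 in C57BL/6J and 1.50 ± 0.47 in ICR, and Csf1, the macrophage growth factor, at 1.62 ± 0.16 in C57BL/6J and 1.57 ± 0.19 in ICR. The ICR call of Vcam1 was lost without any single library but ND replicate 2 (adjusted p 0.0687 to 0.129). In the list of lymphoid genes of the lymphotoxin and BAFF routes, 2 of 4 rose and 1 fell in C57BL/6J and 1 of 2 rose and 1 fell in ICR, with splits of 3 to 0 and 1 to 0 under library size scaling. Cxcl13, a B cell chemokine, was called lower in both strains, at -1.48 ± 0.48 in C57BL/6J and -1.16 ± 0.35 in ICR. That call was lost without CDAHFD replicate 1 or 2 or ND replicate 2 or 3 in C57BL/6J (adjusted p 0.0661 to 0.0767). In ICR it was lost when replicate 2 or 3 of CDAHFD or replicate 1 or 3 of ND was left out (0.0607 to 0.124) and with 1 fit of 12 libraries (0.0686), and under library size scaling it was lost in both strains. Ccl21a rose, at 1.74 ± 0.52 in C57BL/6J and 2.95 ± 0.52 in ICR, and its C57BL/6J call was lost without CDAHFD replicate 1 or 3 or ND replicate 2 or 3 (adjusted p 0.0589 to 0.068). Tnfaip6 rose in C57BL/6J (1.96 ± 0.49), Ccl19 was not called there (0.85 ± 0.58), and neither was tested in ICR. With 1 fit of 12 libraries the call of Tnfaip6 was lost (adjusted p 0.062), and without ND replicate 2 Ccl19 was called (1.94, adjusted p 0.0141).

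**Figure D5:**
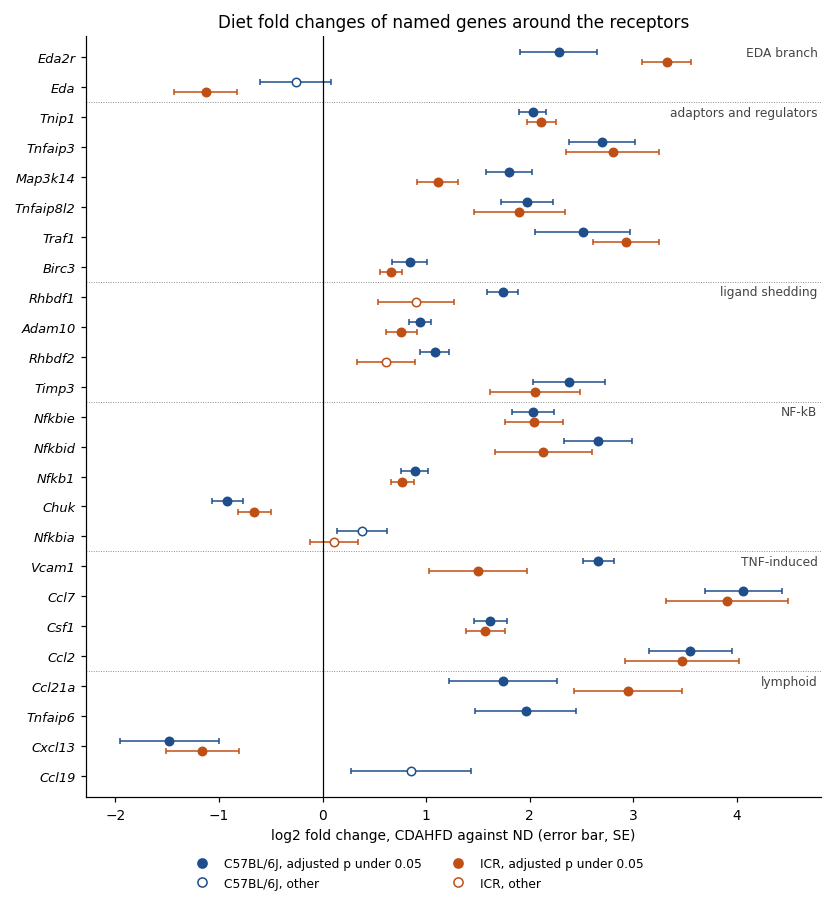
Log2 fold change of CDAHFD against ND with its SE for the named genes around the receptors, grouped by list, in C57BL/6J (blue) and ICR (orange), with filled points for an adjusted p under 0.05. Tnfaip3, Traf1, Ccl2 and Ccl7 lie above 2 in both strains, Chuk and Cxcl13 lie left of 0, and Tnfaip6 and Ccl19 have a C57BL/6J value only.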

How the data were processed

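Liver RNA was sequenced in 12 libraries, 3 a group. Per the study's methods and the submitters' processing notes, the authors trimmed reads with fastp 0.23.4, aligned them with HISAT2 2.2.1 and counted them per gene with featureCounts 2.0.6, and they tested with edgeR 4.0.16. The deposited values used here are unnormalized counts per gene. The build is given as mm10 in the methods and as mm39 in the notes, and no source used here gives the annotation, the strand setting or the treatment of reads fitting several genes. The methods describe an rRNA-depleted stranded kit and the labels an mRNA purification. The 24 deposited columns of CPM and FPKM were not used. Even counts made up 75.1% of counts from 1 to 4 and 50.2% of counts of 1000 or more, so low counts may move in steps of more than 1 read, and intervals cover counting error only.

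The table of 17713 lines gave 17710 genes. Counts were scaled by TMM, filtered with filterByExpr (minimum count 10, minimum total 15) and tested with edgeR 4.0.16 in R 4.3.3 (quasi-likelihood, Benjamini-Hochberg over all genes, threshold 0.05). Each strain was fitted alone for diet, and all 12 libraries together for the interaction of strain and diet and for differences between strains. An SE is the log2 difference divided by the root of F. The scripts were tested on simulated data. Alternatives were other scaling, filters and fits, DESeq2 1.42.0, the study's thresholds (unadjusted p and a fold of 2), the replicate number as a block and leaving out each library. A floor of 6 counts, and leaving out libraries for the folds over the floor, were added after the data were seen. Folds against a group at 0 use a floor of 3 counts over the group and leave out the counting error of the other group. Intervals of ratios are exact at 95%.

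The members and gene lists were chosen with earlier results of these data known. All members are named. Values by library are given for 15 members set by name, for the 6 largest called changes in each strain among members with a group mean of at least 1 CPM, and for the 5 members with the lowest interaction p and the 3 with the lowest p in each strain comparison, with others added for their role. Of each pathway list, the 4 genes with the smallest p and Nfkbia, Nfkb2, Tnfaip3, Birc3 and Traf1 are named. Promoters came from RefSeq (GRCm38.p6) and exon overlaps from GENCODE M21. Nothing in the labels ties libraries to litters or cages, so p-values measure the spread between these samples.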

Additional observations from a re-analysis of the deposited data

How the results depend on the processing

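Of 557 member values recomputed under the alternatives, 512 kept their direction and side of the threshold, 19 passed it newly, 15 no longer passed it and 11 turned. With library size as the only scaling, 27 members rose in C57BL/6J and 22 in ICR. The value of Fas turned to 0.30 and 0.48, that of Ltbr to 0.38 and 0.52 and, in ICR, that of Tnfrsf14 to 0.43. This scaling raised the median of all genes by 0.653 in C57BL/6J and 0.609 in ICR. The share of all genes called was not computed for this scaling or the other alternatives. Counts of members called under them therefore describe the members only. With the study's thresholds the strain by diet term gave 2 members and the ND strain comparison 5, with Tnfrsf9, Tnfrsf13c and Tnfrsf22 added and Tnfrsf21 lost. These thresholds change both the adjustment and the fold required, and the share of all genes passing them was not computed. Leaving out 1 library gave 18 to 21 members in C57BL/6J, 9 to 15 in ICR, 0 for the strain by diet term, 1 to 6 between strains on ND and 0 to 2 on CDAHFD. The log2 values ranged from -0.03 to 0.36 for Tnfrsf1a in C57BL/6J, and in ICR from -0.24 to 0.01 for Fas, -0.18 to 0.01 for Ltbr and -0.26 to 0.82 for Tnfsf10; the cause was not tested. The filters, size factors of the DESeq2 type, the DESeq2 test and 1 fit of 12 libraries gave 20 to 23 members in C57BL/6J and 10 to 13 in ICR.

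Replicate numbers are shared by the groups, but nothing says that they pair the mice. Deviations of same-numbered libraries correlated at 0.16, 0.13 and -0.03 between the diets in C57BL/6J and at 0.17, -0.02 and 0.05 in ICR. Between the strains they correlated at 0.40, 0.31 and 0.09 on CDAHFD and 0.20, 0.15 and -0.11 on ND. Libraries of unlike number ran from -0.22 to 0.19 between the diets in C57BL/6J and from -0.16 to 0.12 in ICR. Between the strains they ran from -0.40 to 0.21 on CDAHFD and from -0.26 to 0.15 on ND. With the replicate block 23 members rose in C57BL/6J, with Tnfsf12 added (0.61, adjusted p 0.0384), and 12 in ICR, with Tnfrsf1b added (0.69, adjusted p 0.0231), 0 passed the strain by diet term, and 3 and 1 differed between strains on ND and CDAHFD, and no member's call was lost. Among list genes named in the text the block added Sharpin in C57BL/6J (-0.40, adjusted p 0.0257) and Mlkl in ICR (1.16, adjusted p 0.0426). It ended the ICR calls of Eda, Sharpin, Cyld and Tab3 (adjusted p 0.0571 to 0.0659). The calls of Ikbkb ended in C57BL/6J (adjusted p 0.0513) and in ICR (0.0658). Too few counts to test were held by 10 members in C57BL/6J and 11 in ICR.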

Other observations

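Among markers of other cells, 5 of 7 dendritic cell genes rose in C57BL/6J and 4 of 7 in ICR, 6 of 8 cholangiocyte genes rose in both strains and 2 of 7 sinusoidal endothelial genes rose in both. The share of all tested genes that rose was 26.0% in C57BL/6J and 20.1% in ICR, near that of the endothelial genes. Of the neutrophil genes 0 of 3 tested rose in C57BL/6J and 3 of 8 in ICR. Of the 5 resident Kupffer cell genes 0 rose and 1 fell in C57BL/6J, and 0 were called in ICR.

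Some genes known to be well expressed by liver macrophages or endothelium were nearly empty in the table. Csf1r had 8 counts over all 12 libraries, while the other macrophage markers in the table were among the genes that rose. Stab2, a scavenger receptor of sinusoidal endothelium, had 96 counts, and Nfkb2 had 39. How these counts came about was not tested, and the same could hold for a member of the family with few counts.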
